A study of Mus musculus with 8 samples.

Results

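Pyrimidine salvage was followed through 10 genes, Upp1, Slc28a1, Uck1, Uck2, Cda, Tk1, Tymp, Dck, Dut and Umps, chosen by symbol in a table of 25574 gene entries. All 10 symbols were found, on 11 entries, since Uck2 was listed as a longer and a shorter stretch. The transcripts came from mouse oocytes that had passed nuclear envelope breakdown (NEBD). They were separated on sucrose gradients into a non-polysomal (NP) dataset, gradient fractions 2 to 5, and a polysomal (P) dataset, fractions 6 to 10. Each dataset had 4 libraries. All 8 libraries came from the same kind of cell, fully grown and denuded oocytes of CD1 mice aged 8 weeks that had received 5 IU of pregnant mare serum gonadotropin 46 h earlier. The oocytes were held in 100 µM IBMX during collection, released from it for 180 min and given 0.1 mg/mL cycloheximide, which holds ribosomes on their mRNA, for 10 min. Each profile used 200 oocytes, from a number of animals that the sources do not state. The study presented the 4 profiles as independent biological replicates, and pooled an NP and a P part from the profiles. The comparison of P with NP asks how far a stored transcript is loaded onto polysomes. Fraction 1 of the 10 fractions was not sequenced.

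Cells build uridine and cytidine nucleotides anew or recover them from free nucleosides, the salvage route. In salvage, transporters bring nucleosides in, kinases trap them as monophosphates, and phosphorylases split them into a base and a ribose phosphate. Full-grown oocytes hardly transcribe, so an mRNA found in them was mostly stored earlier, and its place in the gradient is read as its load of ribosomes.

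The values are FPKM, fragments scaled to the length of the gene and to the reads of the library. The length used can exceed that of a transcript, as for Tk1, with 5198 bases used and 1440 in the transcript Tk1-201. Levels of different genes are therefore only roughly comparable. Each library was amplified from little RNA and scaled to its own total, so FPKM gives the make-up of a pool and not the amount of RNA in it. From the steps between FPKM values, the number each library had been scaled to was recovered as 1299380 to 7594634 in NP and 2677945 to 4699330 in P. A step is 1 counted read or fragment, and which of these it is was not given. Amplified cDNA without molecular identifiers does not give independent molecules, so step counts describe counting error only. All 12 oocyte marker genes were present, with sums of 6671 to 12785 FPKM in NP and 8904 to 30376 in P. Of 12 granulosa and cumulus markers, Foxl2, Inhba, Has2 and Ptx3 were listed at 0 throughout, and the sum of the 12 was 6.07 to 78.2 FPKM in NP and 1.89 to 62.6 in P. Cyp19a1 had the highest mean of them in both datasets. Of 7 theca, stroma and blood markers in the table, Col1a1, Hba-a1 and Ptprc were listed at 0 throughout, and the sum ran from 0 to 51.5 FPKM in NP and from 0 to 17.9 in P. Its highest values came from Cyp11a1, at 46.4 FPKM in NP replicate 4 and 17.9 in P replicate 4. The part of these other cell types in the results was not tested.

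The Upp1 primers with which the study measured this mRNA by qRT-PCR are shown because they mark which piece of Upp1 that assay reads. Capitals mark the bases of the forward primer that fall in exon 8, the rest of it lying in exon 7.
Upp1 forward: ggacttctatgaggGGCAAGG
Upp1 reverse: catggtggcaaacaccgaag
On the plus strand of GRCm38, the forward primer matched chr11:9134918-9134931 in exon 7 and chr11:9135164-9135170 in exon 8, and the reverse primer, on the opposite strand, matched chr11:9135269-9135288 in exon 8. All of these bases are coding in the transcript Upp1-201, which has 9 exons and 1277 bases. Both primers were found in 3 of the 7 protein-coding transcripts that GENCODE vM21 gives for Upp1, spanning 139 bases of cDNA, and in no transcript of another protein-coding gene. The Upp1 transcripts without both primers were 430 to 621 bases long, shorter than the 933 coding bases of Upp1-201. FPKM values instead count reads over all exons of the gene.

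The ends of the transcripts are shown because stored oocyte mRNAs are often regulated there, through the cytoplasmic polyadenylation element and the polyadenylation hexamer. Capitals mark the hexamer within a short window on the strand of the gene.
Upp1: actcctgggcAATAAAtctatttttt
Slc28a1: cccaactaaaAATAAAgtataactta
Tk1: aatgaacaatATTAAAgtttactact
Dut: aaaggcataaATTAAAattttagagg
The windows lie in 3′ UTRs at chr11:9136136-9136161 for Upp1, chr7:81170382-81170407 for Slc28a1, chr11:117815531-117815556 on the minus strand for Tk1 and chr2:125258576-125258601 for Dut. The hexamer of Upp1 starts 19 bases before the annotated end. In the last 100 bases of 1 chosen transcript per gene, read on the sense strand, AATAAA was found in 5 of the 10 genes (Upp1, Slc28a1, Uck1, Uck2 and Dck), against 64.9% of 11688 windows of tested genes. With ATTAAA added, 7 of the 10 held a hexamer, against 79.6%. The polyadenylation element, searched as TTTTAT or TTTTAAT, neither of which holds the other, was in none of the 10 windows and in 18.7% of all windows. These counts say only which letters the windows held.

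Upp1 (chr11:9118103-9136170, plus strand) encodes uridine phosphorylase, which splits uridine into uracil and ribose phosphate. Of the 10 genes it had the highest mean level in both datasets and was the only one whose NP and P libraries did not overlap. Its FPKM was 1252, 826, 248 and 849 in NP replicates 1 to 4, and 112, 119.6, 75.02 and 55.98 in P replicates 1 to 4. Every NP library was above every P library, the closest being NP replicate 3 and P replicate 2. The means were 794 ± 413 in NP and 90.7 ± 30.2 in P (SD, n = 4), a level 8.76 times higher in NP. Behind them stood 2105 to 12644 steps per library in NP and 294 to 1032 in P, so counting error was small beside the spread between libraries. On the log2(FPKM + 1) scale the fold change of P over NP was −2.97 (SE 0.60, 95% confidence interval −4.26 to −1.67). With limma and Benjamini-Hochberg adjustment over 14292 genes the adjusted p was 0.344, which does not pass the threshold of 0.1, while the unadjusted p was 0.000232, the 9th lowest of all genes tested. With voom in limma on the recovered steps the log2 fold change was −2.82 and the adjusted p 0.0712, which passes the threshold, in a fit that called 259 genes, 1.82% of 14254. Upp1 was taken to qRT-PCR by the study after these libraries had been seen, so its place here is not independent evidence. By qRT-PCR in additional biological replicates the study reported the same direction for Upp1, with a weaker enrichment than by sequencing.

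**Figure D1:**
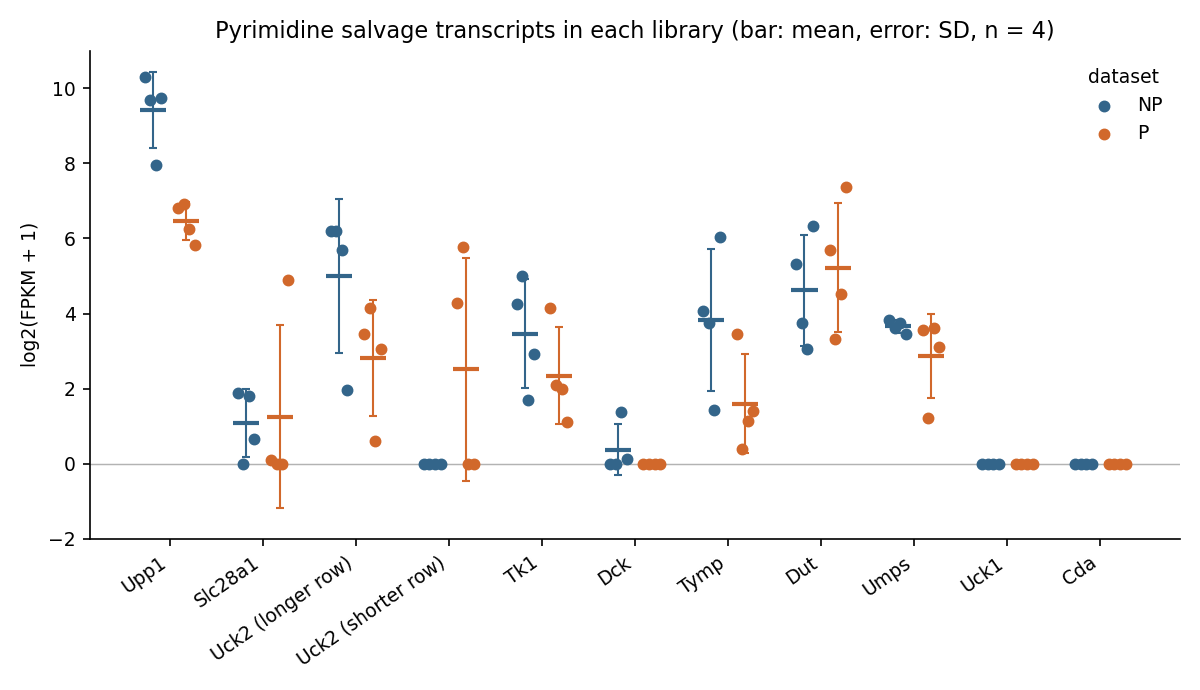
Each point is 1 library, given as log2(FPKM + 1) for the 11 entries of the 10 genes; bars are means and error bars SD of 4 NP (blue) or 4 P (orange) libraries. Upp1 is the only gene whose NP points all lie above its P points, and Uck1 and Cda lie at 0 throughout.

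The median log2 fold change over all 14292 genes tested was −0.39, so most genes stood lower in P on this scale, and 71.4% had a log2 fold change below 0. Relative to that median Upp1 was at −2.57 (limma, unadjusted p = 0.000793). It had the 136th lowest log2 fold change of all genes. Among the 151 genes with a mean of at least 500 FPKM in NP it had the 2nd lowest, where the median was −0.66. That set was picked on high NP values, which itself favours low fold changes, so this rank is a description only. Under another scaling, centring each library on its median, the median of all genes moved to 0.57, Upp1 was still lower in P at −2.01 (limma adjusted p = 0.132), and its libraries overlapped.

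The rank of Upp1 within its own library does not depend on that scaling. Among genes above 0 it stood at rank 45, 90, 272 and 87 in NP replicates 1 to 4 and at rank 978, 716, 1150 and 1665 in P replicates 1 to 4. Expressed as the distance from the top, this was 0.964% ± 0.699 in NP and 11.2% ± 4.97 in P (SD, n = 4; exact permutation test, two-sided p = 0.0286, the smallest that 4 against 4 libraries can give). The study had picked Upp1 from these same libraries. The test also treats NP and P parts of the same profiles as independent, so its p is a description only. As a share of the summed FPKM, Upp1 held 569 to 2091 ppm in NP and 87.8 to 271 ppm in P. Of the FPKM of the 10 genes together it made up 76.0% to 88.6% in NP and 21.0% to 66.5% in P. It was the highest of them in 7 of the 8 libraries, and in P replicate 4 Dut was higher.

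**Figure D2:**
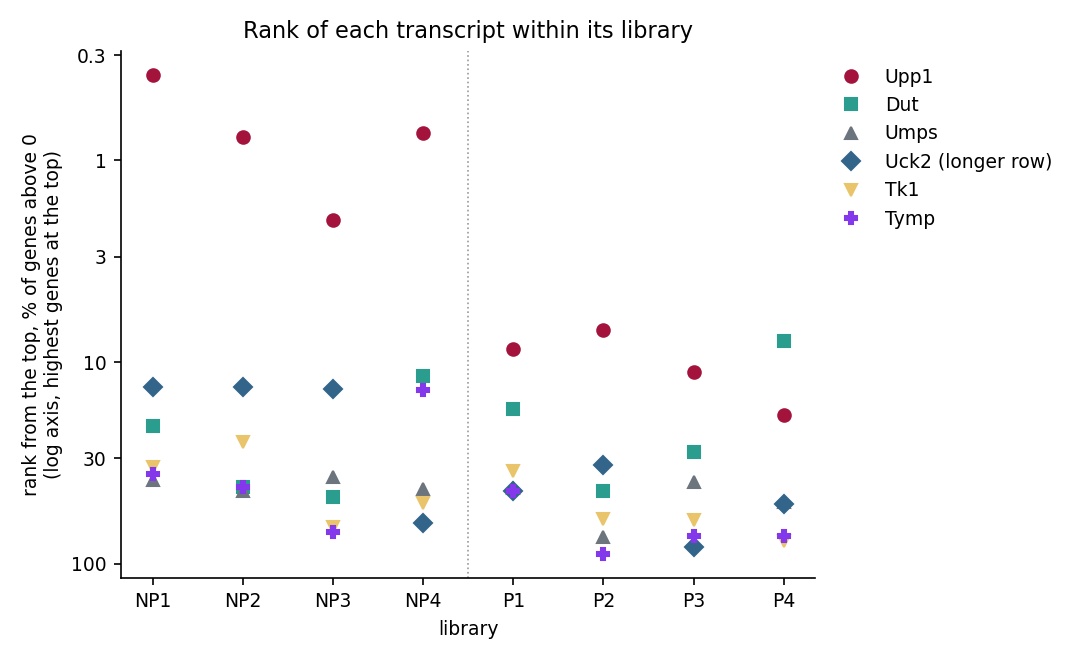
The vertical axis (log scale) gives the rank of 6 transcripts in each library as a percentage of the genes above 0, with the highest genes at the top; NP libraries are left of the dotted line and P libraries right of it. Upp1 lies between 0.376% and 1.98% from the top in NP and between 6.94% and 18.2% in P.

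Ratios of Upp1 to other genes in the same library were less clear. The ratio of Upp1 to Dut was 10.8 to 66.3 in NP and 0.342 to 13.2 in P, and that of Upp1 to Umps was 20.01 to 94.1 in NP and 6.72 to 89.1 in P, so both overlapped. Both ratios were highest in P in replicate 2, in which Dut and Umps were themselves at their lowest in P.

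Slc28a1 (chr7:81114799-81170416, plus strand) encodes a sodium-coupled transporter that concentrates pyrimidine nucleosides. It was a low transcript with 1 exception. Its FPKM was 2.65, 0, 2.51 and 0.580 in NP and 0.0721, 0, 0 and 28.9 in P. P replicate 4 held 99.8% of the P sum, with 228 steps, and P replicate 1 had a single step. The mean was 1.44 ± 1.35 in NP and 7.23 ± 14.4 in P (SD, n = 4). The log2 fold change was 0.16 (SE 1.02, limma adjusted p = 0.949), and without P replicate 4 it was −1.05 (limma adjusted p = 0.562).

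The kinases come next. Uck2 encodes a uridine-cytidine kinase, the enzyme that commits salvaged uridine to UMP. The longer Uck2 entry (chr1:167226090-167285127, minus strand) had 72.5, 72.3, 50.5 and 2.87 FPKM in NP and 9.91, 16.9, 0.507 and 7.29 in P. Apart from NP replicate 4, every NP library was above every P library. The means were 49.5 ± 32.8 and 8.65 ± 6.77 (SD, n = 4), a ratio of 5.73 in favour of NP. The log2 fold change was −2.20 (SE 1.06, 95% confidence interval −4.46 to 0.07, limma adjusted p = 0.513, unadjusted 0.0569). Without NP replicate 4 it was −3.21, with an unadjusted limma p of 0.0037 and an adjusted p of 0.335.

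The shorter Uck2 entry covers 93 bases, chr1:167223827-167223919, inside exon 7 of the longest annotated Uck2 transcript, in its 3′ UTR. That UTR runs 3207 bases past the end of the longer entry. The short stretch was listed at 0 in all 4 NP libraries and at 18.3, 53.7, 0 and 0 FPKM in P, from 8 and 16 steps. Set against a floor of 3 steps in each NP library, the P mean was at least 1.65-fold higher. Without P replicate 2, which held 74.6% of the P sum, the P mean was 6.10, below the mean floor of 10.9, and no bound remained. Its fitted log2 fold change was 2.51 (SE 1.14, limma adjusted p = 0.495, unadjusted 0.0454) and depends on the pseudocount. The unadjusted p went above 0.05 without any 1 of the NP libraries or of P replicates 1 and 2, with no filter on low values, with quantile normalization and with voom. In FPKM a single step weighs far more over 93 bases than over a whole gene. When the steps of both entries were summed over their joint length, Uck2 stood at 46.3 ± 30.6 FPKM in NP and 9.26 ± 7.85 in P (SD, n = 4), with a log2 fold change of −2.07 (limma adjusted p = 0.530). That sum was added after the values had been seen.

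Uck1 (chr2:32255002-32260159, minus strand), the other uridine-cytidine kinase, was listed at 0 in all 8 libraries.

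Tk1 (chr11:117815526-117826092, minus strand), the cytosolic thymidine kinase of dividing cells, was present in every library. It had 17.96, 30.8, 2.25 and 6.59 FPKM in NP and 16.8, 3.30, 2.99 and 1.15 in P, with 85 to 298 steps in NP and 16 to 411 in P. The datasets overlapped, P replicate 1 being above 2 of the NP libraries. Means were 14.4 ± 12.8 and 6.07 ± 7.24 (SD, n = 4), and the log2 fold change was −1.12 (SE 0.98, limma adjusted p = 0.667). The ratio of the mean in P to that in NP, 0.421, was 0.172 without P replicate 1 and 0.679 without NP replicate 2.

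Dck (chr5:88764996-88783281, plus strand), which phosphorylates deoxycytidine, was nearly absent from the table. It was listed at 0, 0, 1.61 and 0.0856 FPKM in NP and at 0 in all P libraries. The NP values stood for 18 steps in replicate 3 and 1 step in replicate 4, at a length of 1539 bases. That was the shortest length giving whole steps, while the annotated transcript Dck-201 has 3078 bases. The NP mean of 0.423 was below the mean floor of 0.547 that 3 steps set in a P library at 1539 bases, so no fold is given. The length of Dck-201 also gives whole steps, and a longer length means more steps and a lower floor. The place of the NP mean beside the floor thus depends on the length used. No difference was detected by limma (log2 fold change −0.38, SE 0.31, limma adjusted p = 0.658).

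The other phosphorylase, Tymp (chr15:89371931-89377039, minus strand), splits thymidine. Its FPKM was 15.7, 12.5, 1.69 and 65.2 in NP and 10.0, 0.306, 1.21 and 1.65 in P. NP replicate 3 lay within the P range and P replicate 1 within the NP range, so the datasets overlapped. The means were 23.7 ± 28.2 and 3.30 ± 4.52 (SD, n = 4), and the log2 fold change was −2.22 (SE 1.07, 95% confidence interval −4.52 to 0.08, limma adjusted p = 0.513). The ratio of the mean in P to that in NP, 0.139, was 0.332 without NP replicate 4 and 0.0445 without P replicate 1, with log2 fold changes of −1.48 and −2.84. Without NP replicate 3 the log2 fold change was −3.02. In these 3 fits the limma adjusted p was 0.624, 0.412 and 0.507.

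Tymp is an uncertain measurement for another reason. Of its 2037 exonic bases, 856 (42.0%) are shared with Sco2 on the same strand and 535 (26.3%) with Ncaph2 on the other strand, and the libraries carry no strand. Sco2 had 38.6, 45.1, 10.8 and 121 FPKM in NP and 24.02, 2.18, 2.36 and 13.1 in P. Both genes were highest in NP replicate 4 and, within P, in replicate 1. The sources do not state how reads in the shared bases were assigned.

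Cda (chr4:138338424-138367992, minus strand), which deaminates cytidine to uridine, was listed at 0 in all 8 libraries, as Uck1 was. With no value above 0 their levels were not tested.

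Dut (chr2:125247190-125258608, plus strand), whose enzyme removes dUTP and so supplies dUMP, was the transcript next to Upp1 in mean level in P. Its FPKM was 39.3, 12.5, 7.35 and 78.9 in NP and 50.4, 9.06, 21.8 and 163 in P. The range in P covered that in NP almost fully. Its means were 34.5 ± 32.8 in NP and 61.2 ± 70.3 in P (SD, n = 4), and the log2 fold change was 0.61 (SE 0.94, 95% confidence interval −1.40 to 2.61, limma adjusted p = 0.788). Without P replicate 4 it was −0.11. Replicate 4 was the highest Dut library in each dataset.

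Umps (chr16:33954782-33967038, minus strand) encodes the enzyme that makes UMP at the end of the de novo route, the point where salvage and synthesis meet. Of the genes above 0 it had the smallest SD relative to its mean in NP. It had 13.3, 11.3, 12.4 and 9.90 FPKM in NP and 10.7, 1.34, 11.2 and 7.61 in P. P replicates 1 and 3 lay within the NP range. The means were 11.7 ± 1.47 and 7.72 ± 4.54 (SD, n = 4), with a log2 fold change of −0.79 (SE 0.79, limma adjusted p = 0.698). With each library centred on its median it was 0.17, on the other side of 0. Of its 3484 exonic bases, 213 (6.1%) lie opposite exons of Gm15829 and could not be told apart by strand.

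**Figure D3:**
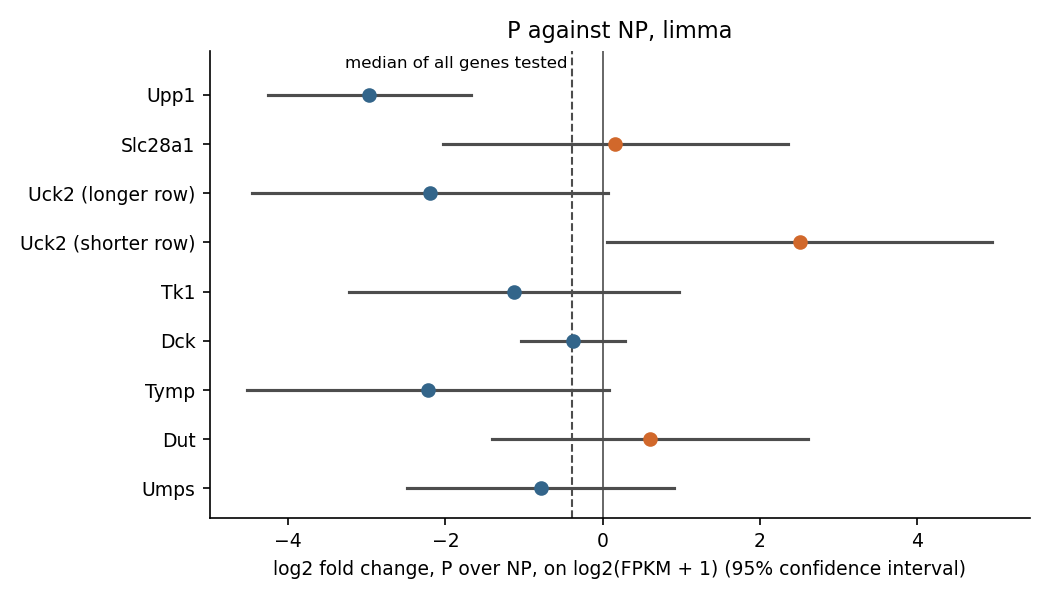
Points give the limma log2 fold change of P over NP on log2(FPKM + 1) for the 9 entries above 0, with 95% confidence intervals; the dashed line is the median of all genes tested, −0.39. The intervals of Upp1, from −4.26 to −1.67, and of the shorter Uck2 entry, from 0.06 to 4.96, are those that leave out 0.

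In order of mean FPKM in NP, which depends on the length used, the genes ran Upp1, Uck2 (longer entry), Dut, Tymp, Tk1, Umps, Slc28a1 and Dck. Upp1 stood clear of the next gene, since its lowest NP value, 248, was above the highest NP value of any other, the 78.9 of Dut. Umps, at 9.90 or more, also stood clear of Slc28a1, at 2.65 or less, and the other neighbours overlapped. In P the order was Upp1, Dut, the short Uck2 stretch, Uck2 (longer entry), Umps, Slc28a1, Tk1 and Tymp. There Upp1 and Dut overlapped, and so did all neighbours below them.

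The 10 genes were then read as a list beside all genes tested. All 9 entries above 0 passed the filter on low values, Dck through NP alone and the shorter Uck2 entry through P alone, so the counts that follow are descriptions. By limma on log2(FPKM + 1) no entry had an adjusted p below 0.1, as against 0.021% of the genes tested (3 of 14292). At an unadjusted p below 0.05, 1 entry (Upp1) was lower in P, against 9.47% of all genes, and 1 (the shorter Uck2 entry) was higher, against 0.476%. The NP libraries were all above the P libraries for Upp1 alone, against 5.92% of all genes, and no entry had all P libraries above all NP libraries, against 0.357%. On mean FPKM, 5 entries (Upp1, Uck2, Tk1, Tymp and Dck) were over 2-fold higher in NP, against 40.6%, and 2 (Slc28a1 and the shorter Uck2 entry) over 2-fold higher in P, against 16.9%. With the entries at 0 set to their floor these became 4 and 1. Without P replicate 4 Slc28a1 was instead over 2-fold higher in NP, at a ratio of P to NP of 0.0167, and Tk1 was under 2-fold there and without NP replicate 2. Dut was over 2-fold higher in P without NP replicate 4 (a ratio of 3.11), P replicate 2 (2.28) or P replicate 3 (2.15). Of the 9 entries, 6 had a log2 fold change below 0, and their median was −0.79, also with entries at 0 at their bound, against −0.39 for all genes.

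The same comparison was made for 42 further genes of pyrimidine nucleotide metabolism, of which 35 were tested. None had an adjusted p below 0.1 by limma, nor by voom on the steps, where 34 were tested and 6 had an unadjusted p below 0.05, all lower in P, against 13.3% of all genes in that fit. On log2(FPKM + 1), at an unadjusted p below 0.05, 4 were lower in P and none higher, against 9.47% and 0.476% of all genes. A log2 fold change below 0 was found for 27 of the 35, against 71.4%, and the median was −0.54. In 1 of them, Slc29a3, a nucleoside transporter of inner membranes, all NP libraries were above all P libraries (5.92% of all genes), at levels of 0.161 to 1.06 FPKM in NP and 0 to 0.107 in P.

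Nucleoside transport and other salvage had 9 genes tested, with a median log2 fold change of −0.17 and no unadjusted p below 0.05. The highest of the list was Tk2, the mitochondrial thymidine kinase, at 124 ± 27.4 FPKM in NP and 150.4 ± 134 in P (SD, n = 4). In each dataset its lowest library, at 93.9 FPKM in NP and 39.6 in P, was above the highest of Tk1. Since Tk1 was scaled to 5198 bases and Tk1-201 has 1440, this does not settle which mRNA was more abundant. The log2 fold change of Tk2 was −0.11 (SE 0.66, limma adjusted p = 0.946).

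The de novo genes Cad, Dhodh, Ctps and Ctps2 had a median of 0.19, with 1 of 4 below 0. Ctps, which turns UTP into CTP, was the highest, at 71.9 ± 26.7 FPKM in NP and 87.6 ± 34.7 in P (SD, n = 4).

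Among 12 nucleotide kinases and ribonucleotide reductase subunits, 3 had an unadjusted limma p below 0.05, all lower in P, against 9.47% of all genes, and the median log2 fold change was −0.62. Dtymk, which phosphorylates dTMP, had 41.1, 45.9, 16.8 and 42.8 FPKM in NP and 24.6, 7.94, 10.1 and 6.10 in P (log2 fold change −1.60, limma adjusted p = 0.478). Its datasets overlapped through NP replicate 3. Nme6, a nucleoside diphosphate kinase family member, went from 32.5 ± 11.4 FPKM in NP to 12.4 ± 12.4 in P (SD, n = 4; log2 fold change −1.68, limma adjusted p = 0.495). Nme2 was at 0 to 1.07 FPKM in NP and at 0 in P, and its reads can be shared with its near copy Nme1. Nme3 was the highest of the list, at 44.3 ± 32.9 FPKM in NP and 72.7 ± 84.0 in P (SD, n = 4).

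Of 8 dephosphorylation and clearance genes tested, Cant1, a calcium-activated nucleotidase, had 48.9, 10.8, 7.12 and 15.1 FPKM in NP and 0.195, 7.94, 11.9 and 0 in P (log2 fold change −2.28, limma adjusted p = 0.495). Nt5c2, a cytosolic 5′-nucleotidase, was the highest, at 60.9 ± 31.3 FPKM in NP and 74.9 ± 54.2 in P (SD, n = 4). The list median was −0.86. Uracil breakdown, downstream of Upp1, was low throughout. Its highest gene, Dpys, the dihydropyrimidinase, reached 5.31 ± 6.58 FPKM in NP and 2.22 ± 3.44 in P (SD, n = 4).

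Purine salvage was set beside it. All 10 genes were tested, none had an unadjusted p below 0.05, 6 had a log2 fold change below 0, and the median was −0.17. Adk, adenosine kinase, was the highest over the 8 libraries, with 31.5 ± 19.4 FPKM in NP and 91.2 ± 73.0 in P (SD, n = 4; log2 fold change 1.21, limma adjusted p = 0.592).

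**Figure D4:**
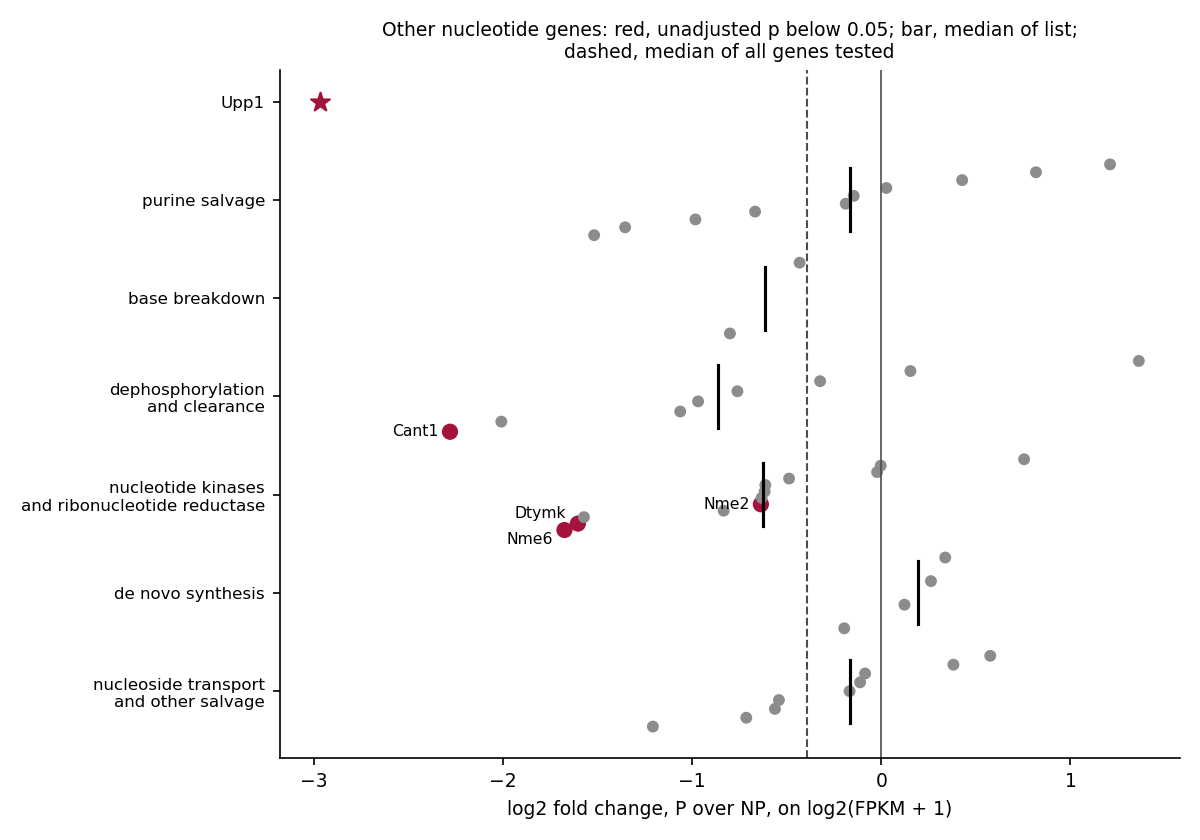
Each point is 1 gene, placed by its log2 fold change of P over NP on log2(FPKM + 1) and grouped by list; red points had an unadjusted limma p below 0.05, short bars are list medians and the dashed line is the median of all genes tested. Upp1, at −2.97, lies left of every gene of the other lists, Cant1 at −2.28 being the nearest.

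Finally, the genes whose pattern was most like that of Upp1 were sought over the 8 libraries, by Pearson's r on log2(FPKM + 1) among 6414 other genes with a mean above 10 FPKM in a dataset. The difference between NP and P is itself a part of such an r, and the libraries share their scaling. The closest were Sap30bp (SAP30-binding protein, r = 0.973), Alad (an enzyme of haem synthesis, r = 0.966), Gsk3a (a protein kinase, r = 0.963), Rab3a (a vesicle GTPase, r = 0.961) and Smyd2 (a lysine methyltransferase, r = 0.961). Sap30bp had 366, 199, 99.1 and 227 FPKM in NP and 37.0, 37.3, 24.8 and 39.1 in P. As with Upp1, its lowest NP library was replicate 3. It too was among the genes that the study took to qRT-PCR. Among the salvage genes above 10 FPKM, r with Upp1 was 0.761 for Tymp, 0.671 for Tk1, 0.541 for the longer Uck2 entry, 0.366 for Umps and −0.12 for Dut.

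**Figure D5:**
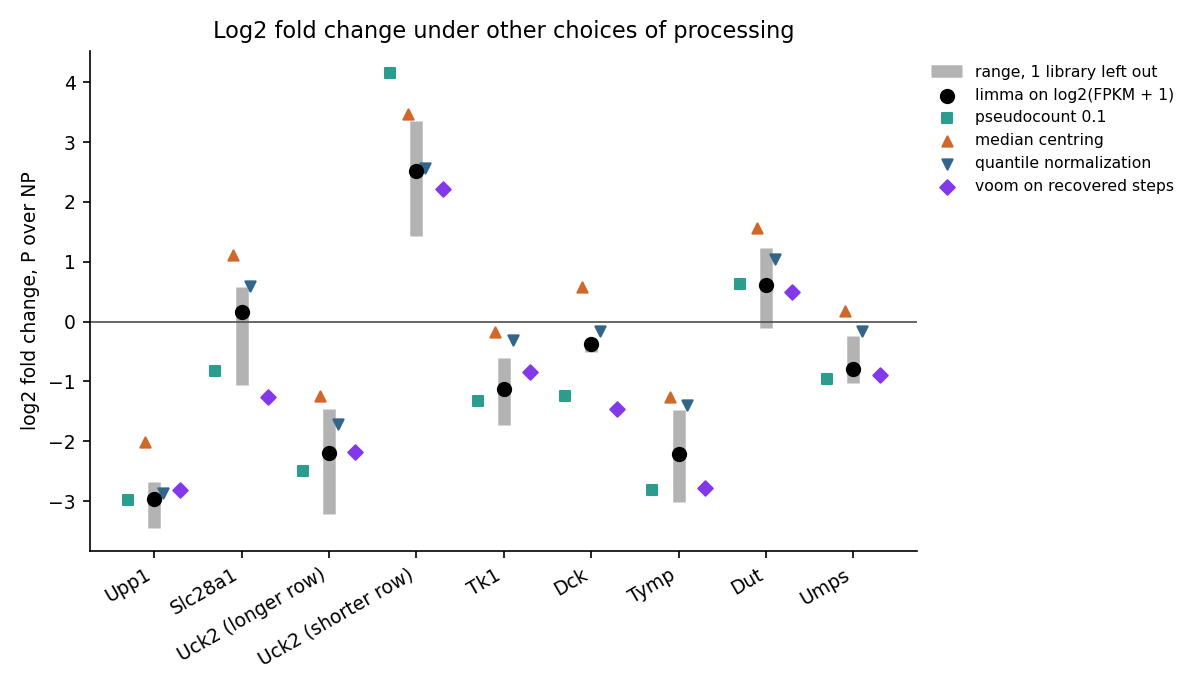
Black points give the log2 fold change of P over NP by limma on log2(FPKM + 1), grey bars the range when each library was left out in turn, and coloured points 4 other choices of processing. Upp1 stays between −3.45 and −2.01, while Slc28a1, Dut, Dck and Umps have values on both sides of 0. Dck, listed at 0 in all P libraries, is above 0 only with median centring, which shifts those zeros.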

How the data were processed

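RNA of the pooled gradient fractions was depleted of rRNA, reverse transcribed with oligo(dT) and random primers, amplified (REPLI-g WTA) and made into Nextera libraries, which carry no strand. Reads were trimmed (Trim Galore 0.4.1) and aligned to GRCm38 (Hisat2 2.0.5) by the authors, who deposited FPKM per gene from Seqmonk. Their tables of ratios and of DESeq2 results hold their own comparisons and were not used.

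Here, P and NP were compared 2-sided on log2(FPKM + 1) in limma 3.58.1 (R 4.3.3; eBayes with trend), so changes of low genes are understated. Genes with a mean FPKM above 0.1 in a dataset entered, and p-values were adjusted by Benjamini-Hochberg (threshold 0.1). The script was tested on simulated data. Whole steps, within 0.01 of a step, were recovered for 99.8% of entries above 0. Of these 15547 entries, 6840, Upp1 among them, used the annotated length. The other 8707 used the shortest length that gave whole steps, so a fit was easily found for entries with few values. Their steps, which voom also used, can be too few. Named beside the 10 genes were those of the other lists with an unadjusted p below 0.05, separate datasets or the highest mean, and the 5 most like Upp1. Motifs were read from GENCODE vM21 transcripts (GRCm38), and the primers from the study's primer list. The members and lists were chosen with earlier results of these data known. Alternatives were another pseudocount, filters, scalings, voom on steps, a replicate block, and leaving out each library.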

Additional observations from a re-analysis of the deposited data

Results flagged for a closer look

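Within each group of 4 libraries, 3 values stood apart from the rest by Dixon's criterion on log2(FPKM + 1), out of 16 groups examined, and chance alone gives about 1 in 20. Uck2 (longer entry) was at 2.87 FPKM in NP replicate 4, its other NP libraries being at 50.5 or more. Dck was at 1.61 FPKM in NP replicate 3, from 18 steps at the shortest length giving whole steps. At that length the other NP libraries had at most 1 step. Slc28a1 was at 28.9 FPKM in P replicate 4, from 228 steps, the other P libraries having at most 1 step. The causes were not tested.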

How the results depend on the processing

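The log2 fold change of Upp1 kept its sign under all 15 alternatives, from −3.45 to −2.01, with adjusted p between 0.0712 (voom on recovered steps, below the threshold) and 0.614. Of 134 values of the 9 entries under alternatives, 126 kept their direction and their side of the threshold. Slc28a1 turned to −0.82 with a pseudocount of 0.1, to −1.27 with voom, to −0.20 without NP replicate 2 and to −1.05 without P replicate 4, the highest with a library left out being 0.58. Dut turned to −0.11 without P replicate 4 (up to 1.24 without P replicate 2), and Dck and Umps to 0.58 and 0.17 with median centring. Dck was listed at 0 in all P libraries, so its centred P values hold only the shift of each library and show no gain in P. The causes of the other changes were not tested.

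Genes called, 3 by limma with 1422 at an unadjusted p below 0.05, became 5 with a pseudocount of 0.1 or a filter at FPKM 1, 0 with no filter, quantile normalization or median centring (1510, 942 and 2896 at an unadjusted p below 0.05, by limma), 259 with voom, and 0 to 5 with 1 library left out: 0 without any NP replicate or P replicate 3 (1098 to 1598 at an unadjusted p below 0.05, by limma), 5 without P replicate 1, 3 without P replicate 2 and 2 without P replicate 4. Entries at an unadjusted p below 0.05, 2 at first, became 3 with a pseudocount of 0.1 or a filter at FPKM 1, where Tymp joined, 1 with no filter, quantile normalization or voom, and 1 to 2 with a library left out (1 without NP replicate 1 or 2). With a library left out, Upp1 was among them each time and the shorter Uck2 entry only without P replicate 3 or 4. Entries over 2-fold on mean FPKM, 7 at first, were 6 to 8 with a library left out. Upp1 was alone in having separate datasets, and this count became 2 with quantile normalization (Upp1 and the shorter Uck2 entry) and 1 to 3 with a library left out. Tymp joined without NP replicate 3 or P replicate 1, and Uck2 and Umps joined without NP replicate 4. With median centring the count stayed at 1 but held the shorter Uck2 entry in place of Upp1. These 2 scalings move equal values of 0 apart. The shorter Uck2 entry was listed at 0 in all NP libraries and in P replicates 3 and 4, so its separation there is no difference in the listed values.

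The replicate number as a block gave 1 gene called and 4 entries at an unadjusted p below 0.05 (Upp1, both Uck2 entries and Tymp). In that limma fit 1734 of 14292 genes had an unadjusted p below 0.05. Upp1 had an unadjusted p of 7.29e-05 and an adjusted p of 0.174 there. Deviations of same-numbered libraries correlated at 0.139, 0.0518, 0.251 and 0.155. Each library correlated best with its own number, except NP replicate 2 (0.136 with P replicate 1). The NP and P parts came from the same profiles, so the 8 libraries are not all independent. No label states that a number marks 1 profile in both datasets, so the main fit took no pairs and the block stands as an alternative. With few steps behind Dck, Slc28a1 and the shorter Uck2 entry, depth limits what their values can show.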
